A study of Oryctolagus cuniculus with 6 samples.

Results

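The genes described here were taken from enrichment tables deposited by the authors, under the terms oxidation-reduction process, oxidative phosphorylation, Parkinson's disease and Huntington's disease. After genes also listed under the KEGG terms of glutathione metabolism and PPAR signalling were left out, 47 members remained of 16815 genes in the count table. Each list holds the genes of its term that fell into 1 cluster of the authors' tables, and every one of the 47 was higher in hydrogel than in blank trachea. The members were thus chosen by their difference between the same 6 libraries, and all differences between the groups given here describe that choice. Where an adjusted p or a call is given for a member, it comes from the fit over all genes and is no independent test of that member.

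The RNA came from wild-type rabbit (Oryctolagus cuniculus) trachea, collected on day 14 and sequenced as 3 libraries per group, which the design text calls biological replicates. The blank group is labelled "Epithelial deficiency". The hydrogel group is labelled "Epithelial injury + LA@PA-TA@C", the last part being a code for the hydrogel applied. All 6 tracheae thus carried an epithelial lesion, and no uninjured trachea entered the comparison.

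Oxidative phosphorylation is the process by which the respiratory chain in the inner mitochondrial membrane passes electrons to oxygen and pumps protons, whose return through ATP synthase yields ATP. Oxidation-reduction is the wider class of electron transfers, and its enzymes include dehydrogenases, oxidases and cytochromes P450. Ciliated cells of the airway are rich in mitochondria, which supply ATP for the ciliary beat, and secretory airway cells are rich in cytochromes P450. The KEGG lists of Parkinson's and Huntington's disease hold many respiratory chain genes together with genes of other roles.

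None of the 16815 identifiers could be paired with a gene symbol (0 matched), so the role of each member is known only through its term. The labelled tissue could not be checked against marker genes for the same reason, and no gene or protein sequence could be read. The 2 members with the highest mean level are given by identifier. The others are numbered within their list by mean level, starting from 1 for the member with the most reads. Levels are given as CPM, the read count divided by the library total and multiplied by 1e+06. CPM does not account for gene length, so this order is one of reads and not of transcripts.

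The members were sorted into 3 lists that do not overlap. The first holds the 12 oxidative phosphorylation members, of which 10 were also listed under Parkinson's disease, 5 under Huntington's disease and 6 under oxidation-reduction process. The second holds 9 members listed under a disease term only, called disease-term members. Of these, 6 were listed under Huntington's disease alone, 1 under Parkinson's disease alone and 2 under both. The third holds the other 26 members of oxidation-reduction process. Of the 47 members, 1 was also listed under the GO term glutathione metabolic process, and 0 were among the 20 genes that the same tables place under cilium terms.

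In the authors' deposited table of GO terms, oxidation-reduction process had 38 genes of 327 in the background, with an adjusted p of 7.72e-05. That enrichment used a background of 8089 genes, of which 376 were in the cluster. A separate deposited table, of KEGG terms, used 3967 genes, so adjusted p values are not compared between them. The KEGG table gave 12 of 65 genes for oxidative phosphorylation, with an adjusted p of 0.00122. For Parkinson's disease it gave 13 of 77 genes and the same adjusted p, and for Huntington's disease 14 of 102 genes and an adjusted p of 0.00511.

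The 47 members together took up 1.72%, 1.30% and 1.59% of the reads in blank 1, 2 and 3. In hydrogel 1, 2 and 3 they took 4.84%, 4.77% and 5.57%. The mean share was 1.54% ± 0.216 (SD, n = 3) in blank and 5.06% ± 0.442 (SD, n = 3) in hydrogel. The lowest hydrogel library thus lay above the highest blank library. The Wilson 95% interval of each share was at most 0.0110 percentage points to either side and covers counting error only. Library totals ran from 16827419 to 23390531 counts, and the depth ranges of the groups overlapped.

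Nearly all of these reads came from a few genes. Of the oxidative phosphorylation members, 9 have identifiers within 1 stretch, whose last number is 23 above its first. These 9 held 1.62%, 1.19% and 1.51% of counts in the blank libraries and 4.46%, 4.20% and 5.07% in the hydrogel libraries. The other 38 members held 0.0955% ± 0.0173 (SD, n = 3) of counts in blank and 0.486% ± 0.0923 (SD, n = 3) in hydrogel. Of the 10 genes with the most reads in the whole table, 2 were members. Identifier numbers carry no genome position here, and what the stretch corresponds to was not looked up.

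**Figure D1:**
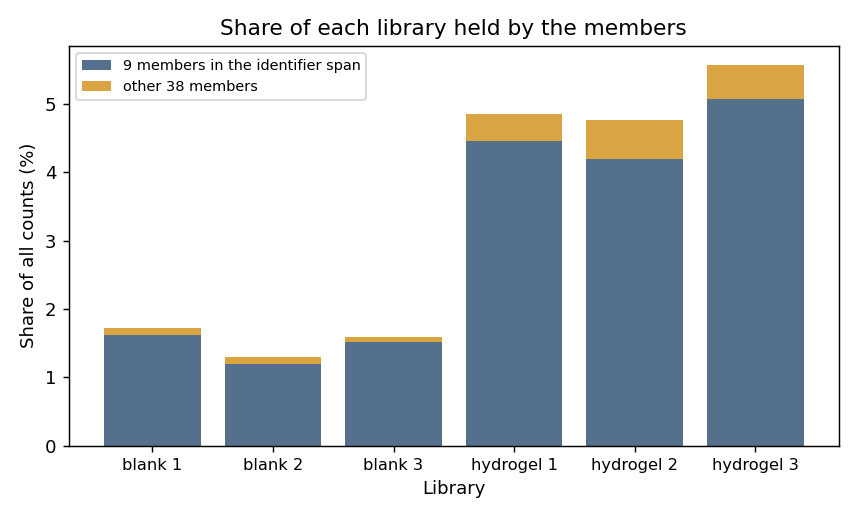
Share of all counts (%, y axis) held by the members in each of the 6 libraries (x axis). The blue part of each bar is the 9 oxidative phosphorylation members with neighbouring identifiers and the yellow part the other 38 members; the blank totals lie between 1.30% and 1.72% and the hydrogel totals between 4.77% and 5.57%.

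Levels averaged over genes showed the lists apart from the weight of the most abundant members. The geometric mean CPM over all 47 members was 15.7 ± 3.64 (SD, n = 3) in blank and 109 ± 12.9 (SD, n = 3) in hydrogel. For the oxidative phosphorylation members it was 272 ± 45.0 in blank and 1101 ± 111 in hydrogel. For the disease-term members it was 3.67 ± 2.03 in blank and 77.4 ± 25.8 in hydrogel. The oxidation-reduction members stood at 7.00 ± 1.05 and 43.0 ± 4.42, respectively. Per member, the oxidative phosphorylation list thus had the most reads in both groups and the disease-term list the fewest in blank, with the largest SD there relative to its mean.

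All 47 members passed the filter on low counts. They had been chosen for being higher in hydrogel, so passing the filter carries no information about them. In the fit across all 13598 genes, 30 of the 47 members were called higher in hydrogel and 0 lower (adjusted p under 0.05 in edgeR's quasi-likelihood test, with Benjamini-Hochberg adjustment over all genes), beside 4.49% of all genes tested called higher and 6.36% called in either direction. The 30 were 12 of 12 oxidative phosphorylation members, 6 of 9 disease-term members and 12 of 26 oxidation-reduction members. Without hydrogel 1 the count was 17 members, beside 501 of 14036 genes called in either direction. Without hydrogel 2 it was 1 member, beside 7 of 13891 genes, and without hydrogel 3 it was 0 members, beside 11 of 13978 genes. Calls over all genes were thus also fewer in these fits. Without blank 1, 2 and 3, the calls were 22, 23 and 22 members, beside 741 of 14003, 629 of 14017 and 532 of 14099 genes. In the fits without hydrogel 1, 2 and 3, edgeR's test gave 42, 43 and 43 members an unadjusted p under 0.05, beside 3198, 2141 and 2276 of the same totals of genes. These fits use libraries on which the members were chosen, so nothing is read from those numbers. DESeq2 on all 6 libraries gave all 47 an adjusted p under 0.05 and called 8.75% of all genes higher. The members were chosen by the authors' own DESeq2 comparison of the same libraries. The outcome for the 47 was thus all but set beforehand, and it is no support for the differences.

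No member overlapped between groups, beside 18.7% of all genes tested that lay wholly higher in hydrogel. In bulk tissue, a larger share of cells of one type and more RNA per cell cannot be told apart.

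**Figure D2:**
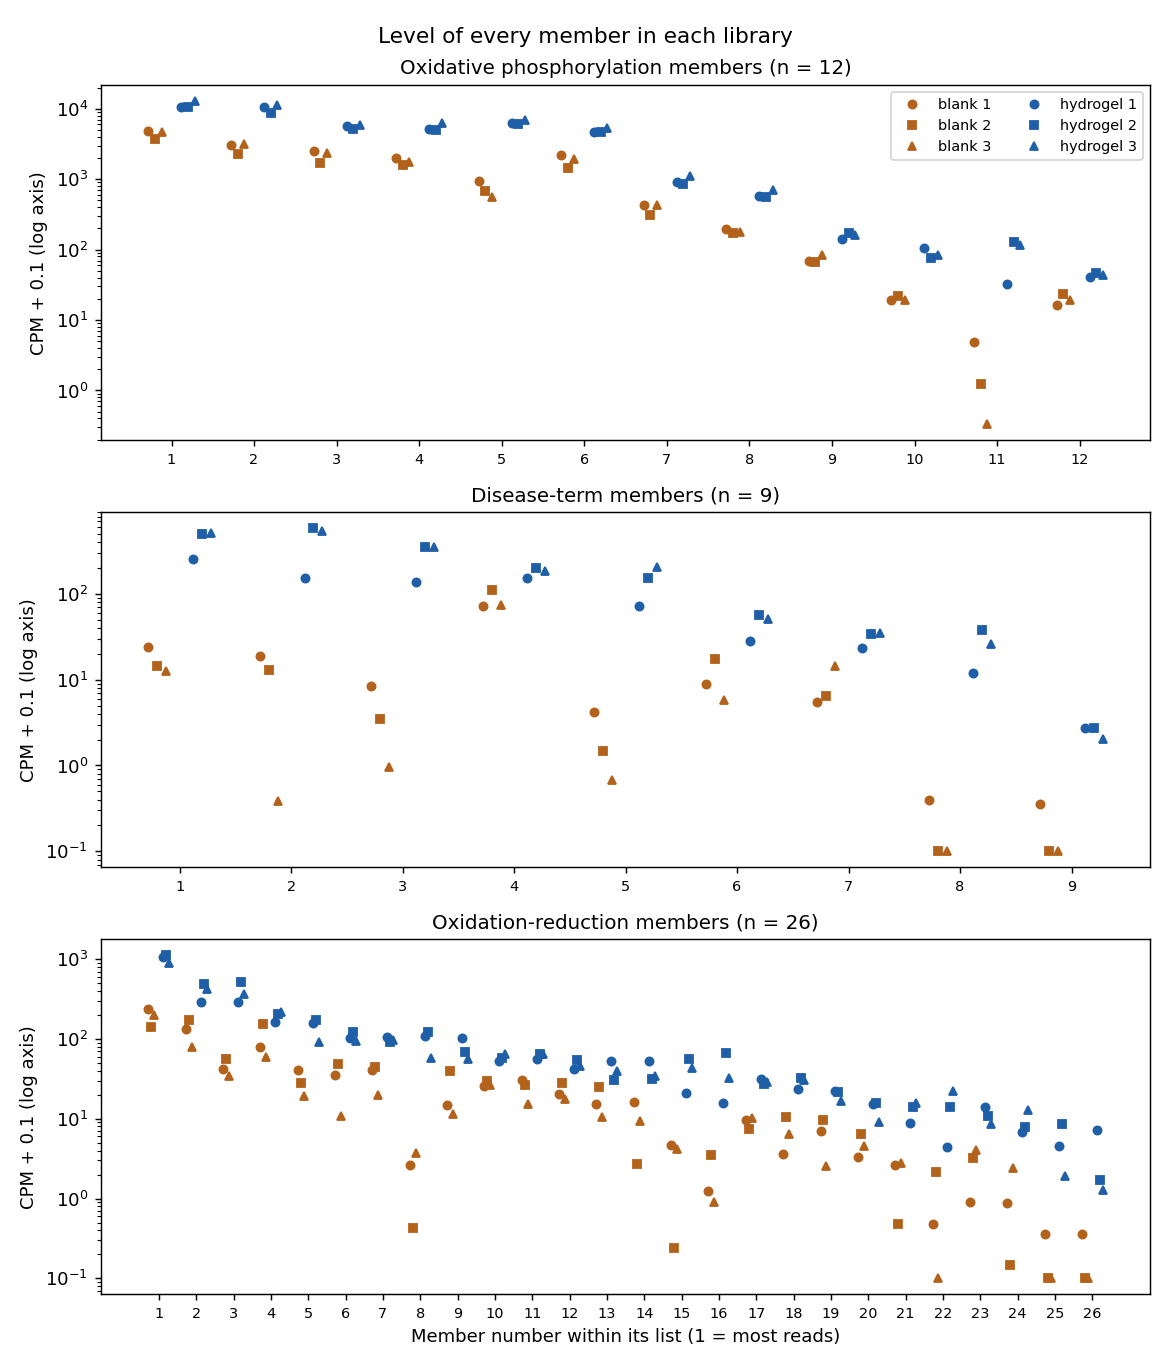
CPM + 0.1 on a log axis (y) of every member (x, numbered within its list by mean level) in the 6 libraries, with orange for blank and blue for hydrogel and 1 marker shape per replicate number. In each of the 47 members all 3 hydrogel points lie above all 3 blank points, and the oxidative phosphorylation members span from 2.04 to 4424 CPM in mean blank level.

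Among the oxidative phosphorylation members, ENSOCUG00000029102 had the most reads, at 4834, 3702 and 4738 CPM in blank 1, 2 and 3 and 10583, 10626 and 12870 CPM in hydrogel 1, 2 and 3. The hydrogel libraries lay close together and all stood well above the blank libraries, of which blank 2 was lowest. Its fitted log2 fold change was 1.30 ± 0.27 (approximate SE), the ratio of mean CPM being 2.57.

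ENSOCUG00000029099 stood at 3102, 2281 and 3117 CPM in the blank libraries and at 10629, 8830 and 11395 CPM in the hydrogel libraries. Blank 2 was again the lowest blank library, and hydrogel 2 the lowest hydrogel library. The log2 fold change was 1.79 ± 0.28, with a ratio of mean CPM of 3.63. Both identifiers are listed under oxidative phosphorylation.

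Oxidative phosphorylation members 3, 4 and 6 had mean levels of 2187, 1779 and 1860 CPM in blank and of 5606, 5508 and 4908 CPM in hydrogel. Their log2 fold changes were 1.29, 1.57 and 1.33. With the 2 named members and member 5 they form the abundant end of the list.

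Oxidative phosphorylation member 5 differed from these neighbours in the size of its difference. It stood at 940, 688 and 568 CPM in blank and at 6241, 6102 and 6918 CPM in hydrogel. All hydrogel libraries lay far above all blank libraries, and blank 3 was the lowest of all. Its log2 fold change was 3.07 ± 0.29 and its ratio of mean CPM 8.77.

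The make-up of the oxidative phosphorylation reads shifted accordingly. Member 5 made up 5.77%, 5.74% and 3.73% of the reads of the 12 members in the blank libraries and 13.9%, 14.4% and 13.6% in the hydrogel libraries. The most abundant member made up 30.6% ± 0.78 (SD, n = 3) in blank and 24.7% ± 0.89 (SD, n = 3) in hydrogel. The portion of the second most abundant member was 19.5% ± 0.83 in blank and 22.3% ± 1.44 in hydrogel. Members 3 and 6 had smaller portions in hydrogel, at 12.2% against 15.0% and at 10.7% against 12.8%. Member 4 kept close portions, 12.3% ± 0.90 in blank and 11.9% ± 0.42 in hydrogel, with overlapping ranges. These portions sum to a whole, so a larger portion for one member lowers the portions of the others.

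**Figure D3:**
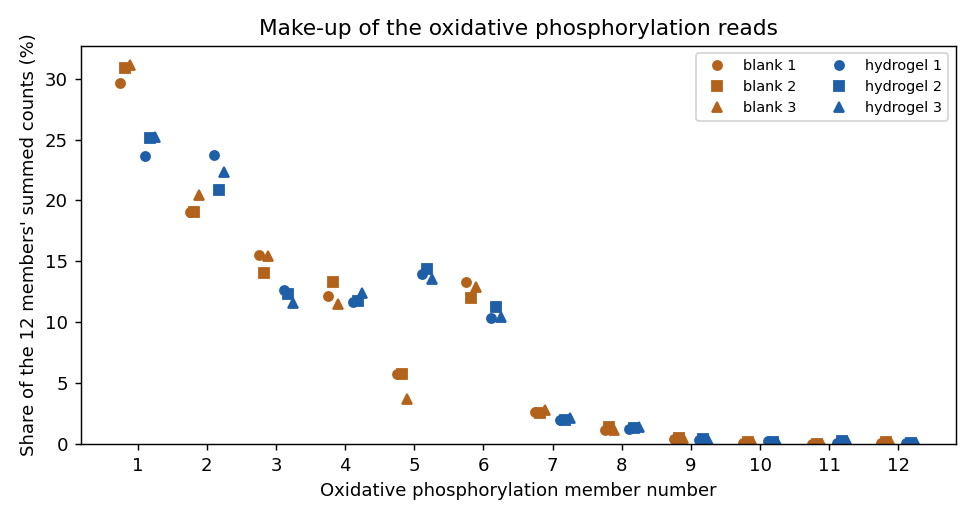
Portion (%, y axis) of the summed counts of the 12 oxidative phosphorylation members that each member (x axis, numbered by mean level) takes in each library, with orange for blank and blue for hydrogel. Member 5 moves from between 3.73% and 5.77% in blank to between 13.6% and 14.4% in hydrogel, while member 1 lies between 29.7% and 31.1% in blank and between 23.6% and 25.2% in hydrogel.

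The less abundant oxidative phosphorylation members had mostly moderate differences. Members 7, 8 and 9 had mean levels of 388, 181 and 72.2 CPM in blank and 955, 611 and 159 CPM in hydrogel, with log2 fold changes of 1.23, 1.70 and 1.08. Member 10 had 20.0 ± 1.39 CPM in blank against 88.6 ± 15.9 CPM in hydrogel, and member 12 had 19.5 ± 3.48 against 43.5 ± 2.96 CPM. Their log2 fold changes were 2.10 and 1.12. The 12 members together had a median log2 fold change of 1.45, beside -0.03 over all genes tested.

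Oxidative phosphorylation member 11 stood apart from the rest of its list. It was at 4.75, 1.14 and 0.231 CPM in blank and at 32.3, 129 and 116 CPM in hydrogel. Its blank level was lowest in blank 3, and hydrogel 1 was far below the other hydrogel libraries. The log2 fold change was 5.38 ± 1.08. It was the only oxidative phosphorylation member whose SD of log2 CPM was above 1 within blank, and the only one above 1 within hydrogel. It was listed under neither disease term nor oxidation-reduction process.

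The identifier stretch that holds 9 of the 12 oxidative phosphorylation members contains 11 identifiers of the count table, of which 2 are not members. One of these had 18432 ± 3805 CPM (SD, n = 3) in blank and 34960 ± 2498 CPM in hydrogel, a log2 fold change of 0.86. The other had 362 ± 82.8 CPM in blank and 1475 ± 207 CPM in hydrogel, a log2 fold change of 1.96. In both, the lowest hydrogel library lay above the highest blank library.

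Disease-term members showed the largest differences, with a median log2 fold change of 4.56. Disease-term member 1 stood at 24.0, 14.3 and 12.7 CPM in blank and at 259, 496 and 510 CPM in hydrogel. Hydrogel 1 was well below the other hydrogel libraries, and all blank libraries were far below it. Its log2 fold change was 4.56 ± 0.43.

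Disease-term member 2 was at 18.8, 12.9 and 0.289 CPM in blank and at 155, 586 and 542 CPM in hydrogel. Blank 3 held almost no reads of this gene, while hydrogel 1 was the lowest hydrogel library. The log2 fold change of 5.28 had an SE of 1.24, and the member was not called.

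Disease-term member 3 was at 8.25, 3.37 and 0.867 CPM in blank and at 139, 349 and 352 CPM in hydrogel, with a log2 fold change of 5.98 ± 0.87. Disease-term member 5 was at 4.06, 1.38 and 0.578 CPM in blank and at 72.7, 153 and 204 CPM in hydrogel, with a log2 fold change of 6.06 ± 0.82. Both followed the order of member 2, with blank 1 the highest blank library, blank 3 the lowest and hydrogel 1 the lowest hydrogel library.

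Disease-term member 8 had the largest log2 fold change of all members, 7.72 ± 1.22. It was at 0.299 CPM in blank 1 and at 0 in blank 2 and 3, a total of 7 reads, and at 11.9, 38.4 and 26.3 CPM in hydrogel. Disease-term member 9 was likewise at 0 in blank 2 and 3, with 6 reads in blank 1, and at 2.60, 2.64 and 1.96 CPM in hydrogel. With so few reads in blank the size of these fold changes is poorly set, and member 9, at 4.54 ± 1.75, was not called.

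The remaining disease-term members differed less. Member 4 was at 72.6, 112 and 73.3 CPM in blank and at 152, 203 and 187 CPM in hydrogel, a log2 fold change of 1.05 ± 0.20. Member 6 had a log2 fold change of 2.11 and was called, and member 7, at 1.76 ± 0.47, was not. The 6 members listed under Huntington's disease alone, numbers 1, 2, 3, 5, 6 and 8, had log2 fold changes from 2.11 to 7.72. Those listed under both disease terms, numbers 4 and 7, had 1.05 and 1.76.

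Oxidation-reduction members covered a wide range of levels, from 0.0855 to 194 CPM in the blank mean and from 3.32 to 1032 CPM in the hydrogel mean. Their median log2 fold change was 2.00. Oxidation-reduction member 1 was at 239, 142 and 201 CPM in blank and at 1062, 1126 and 909 CPM in hydrogel. The hydrogel libraries lay close together and above every blank library, with a ratio of mean CPM of 5.32 and a log2 fold change of 2.33 ± 0.29.

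Oxidation-reduction member 2 was at 135, 172 and 78.6 CPM in blank and at 290, 487 and 418 CPM in hydrogel. Member 3 was at 42.5, 56.4 and 34.2 CPM in blank and at 292, 518 and 371 CPM in hydrogel. Blank 3 was the lowest blank library and hydrogel 1 the lowest hydrogel library for both genes. Their log2 fold changes were 1.61 ± 0.30 and 3.12 ± 0.27, and both were called.

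Oxidation-reduction member 8 was near absent from blank, at 2.52, 0.332 and 3.64 CPM, and stood at 109, 123 and 57.0 CPM in hydrogel. It was highest in blank 3 and lowest in hydrogel 3. Its log2 fold change was 5.36 ± 0.85. Member 16, at 1.15, 3.37 and 0.810 CPM in blank and 15.6, 66.3 and 32.7 CPM in hydrogel, had a log2 fold change of 4.43 ± 0.72. These were the largest differences among the called oxidation-reduction members.

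At the other end, member 4 of this list had the smallest log2 fold change of all 47 members, 1.01 ± 0.31, and was not called. Its levels were 78.8, 155 and 59.1 CPM in blank and 163, 204 and 221 CPM in hydrogel, so that blank 2 almost reached hydrogel 1. Members 10 and 12, with log2 fold changes of 1.06 ± 0.20 and 1.08 ± 0.23, had nearly the same size, and both were called. The SD of log2 CPM in blank was 0.05 for member 10 and 0.57 for member 4.

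The rarest oxidation-reduction members, numbers 25 and 26, were at 0 in blank 2 and 3 and had 6 reads each in blank 1. Member 25 was at 4.39, 8.44 and 1.84 CPM in hydrogel and member 26 at 7.17, 1.60 and 1.19 CPM, with log2 fold changes of 5.56 ± 1.70 and 5.00 ± 1.85. Neither was called. Over all lists, 5 members were at 0 in at least 1 blank library and 0 were at 0 in any hydrogel library.

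Of the 47 log2 fold changes, 14 were under 1.5, 18 between 1.5 and 3 and 15 at 3 or above. The oxidative phosphorylation members contributed 6, 4 and 2 to these ranges, the disease-term members 1, 2 and 6, and the oxidation-reduction members 7, 12 and 7. In the DESeq2 fit, the smallest log2 fold changes of any members were 1.01 and 1.05 and the largest adjusted p was 0.0425. The authors chose the members by their own comparison of these libraries, with cutoffs not given here. These lower and upper ends, like the smallest values in the edgeR fit, may thus be set by that choice. They are not read as a trait of the genes. The authors' deposited table of 1019 genes starts at an absolute log2 fold change of 2.00. It holds 23 of the 47 members, with log2 fold changes from 2.04 to 7.82, of which 3 are oxidative phosphorylation, 7 disease-term and 13 oxidation-reduction members. The 23 are the members above that start in the DESeq2 fit. Their number and split thus follow from the fold changes and add nothing to them.

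**Figure D4:**
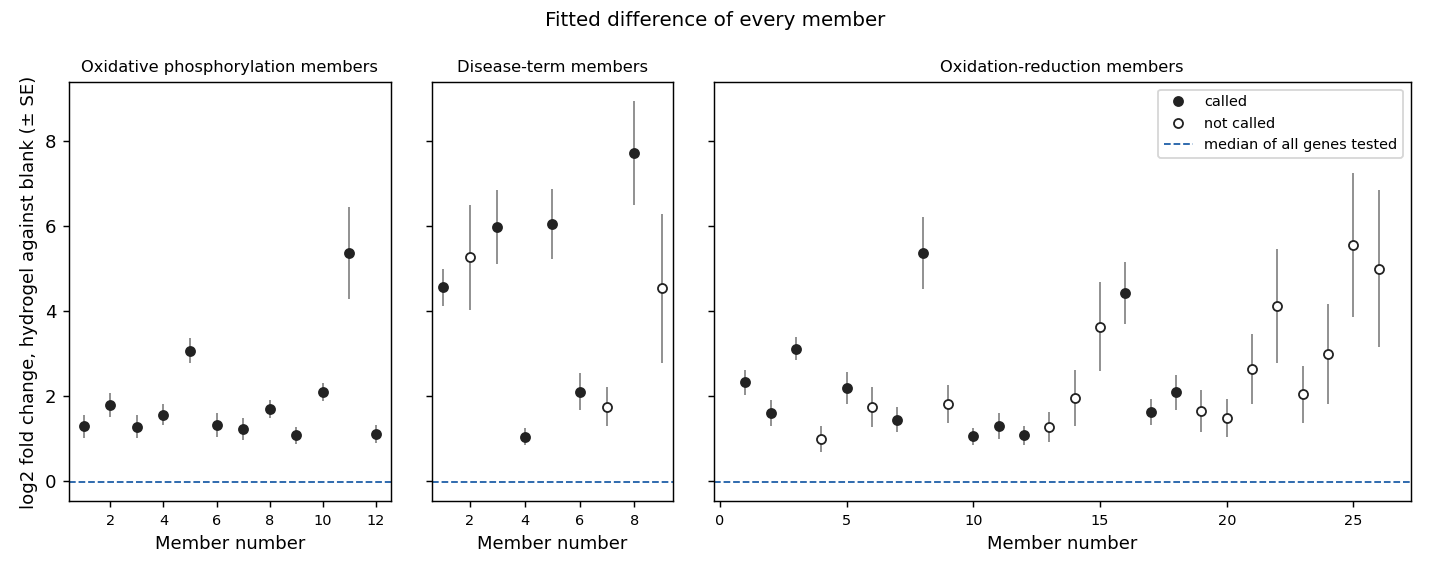
Fitted log2 fold change of hydrogel against blank (y axis) with its approximate standard error (bars) for every member (x axis, numbered within its list). Filled points were called and open points were not; all values lie between 1.01 and 7.72, above the dashed line at the median of all genes tested, -0.03.

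The lists also differed in how far the libraries of a group lay apart. The median SD of log2 CPM within blank was 0.40 for oxidative phosphorylation, 1.14 for disease-term and 0.72 for oxidation-reduction members, beside 0.49 over all genes tested. Within hydrogel it was 0.20, 0.57 and 0.39, beside 0.37. An SD above 1 within blank was found in 1 of 12, 5 of 9 and 10 of 26 members, respectively. Within hydrogel it was found in 1, 1 and 4. The 5 members at 0 in at least 1 blank library were all among those above 1 within blank. The share of all genes with such an SD is not given here, so nothing is read from these counts. The oxidative phosphorylation members, which have the most reads, had the least spread in both groups. These spreads were not compared by a test. The members were chosen by a difference between groups of these same libraries, and such a choice depends on spread within groups. The spreads, and their standing beside all genes, are thus not free of that choice.

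Single libraries were low in some lists and not in others. Blank 2 was the lowest blank library for 8 of 12 oxidative phosphorylation members, and blank 3 alone for 5 of 9 disease-term and 13 of 26 oxidation-reduction members. Counting members at 0 in both blank 2 and blank 3, blank 3 was lowest or tied for 7 of 9 and 15 of 26. Over all genes tested, blank 2 alone was the lowest blank library in 20.9% and blank 3 alone in 42.0%. In hydrogel, hydrogel 3 was the highest for 8 of 12 oxidative phosphorylation members, and hydrogel 2 for 5 of 9 disease-term and 13 of 26 oxidation-reduction members. The share of all genes for the highest library is not given here, so nothing is read from these counts.

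Hydrogel 1 alone was the lowest hydrogel library for 8 of 9 disease-term members, against 5 of 12 oxidative phosphorylation and 12 of 26 oxidation-reduction members, and 38.6% of all genes tested. Its log2 CPM minus the mean of hydrogel 2 and 3 had a median of -0.98 over the disease-term members, with a range from -1.89 to 0.16. The same difference had a median of -0.13 over oxidative phosphorylation and -0.02 over oxidation-reduction members. Over all genes tested its median was 0.01, with 10% of genes below -1.44 and 10% above 1.04. The disease-term values thus lay mostly within the range of other genes, with 8 of 9 below 0.

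The 20 cilium-listed genes, none of them a member, had their lowest hydrogel level in hydrogel 1 in 19 cases. Their median difference was -1.22, with a range from -2.06 to -0.03. Their geometric mean CPM was 14.9, 5.86 and 5.05 in blank 1, 2 and 3 and 50.8, 121 and 114 in hydrogel 1, 2 and 3. The disease-term members stood at 5.75, 3.57 and 1.70 and at 47.8, 95.1 and 89.3 CPM in the same libraries, so the geometric means of both lists had the same order of libraries within blank and within hydrogel. That over all 47 members had this order too, at 19.6, 15.1 and 12.4 CPM in blank and 95.8, 121 and 111 CPM in hydrogel. By share of counts the order within blank differed: the disease-term members were highest in blank 2, at 0.0167%, and the cilium-listed genes in blank 1, at 0.0483%. The share of all 47 members was lowest in blank 2 within blank and highest in hydrogel 3 within hydrogel. The part of the cilium-listed genes in these differences was not tested.

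**Figure D5:**
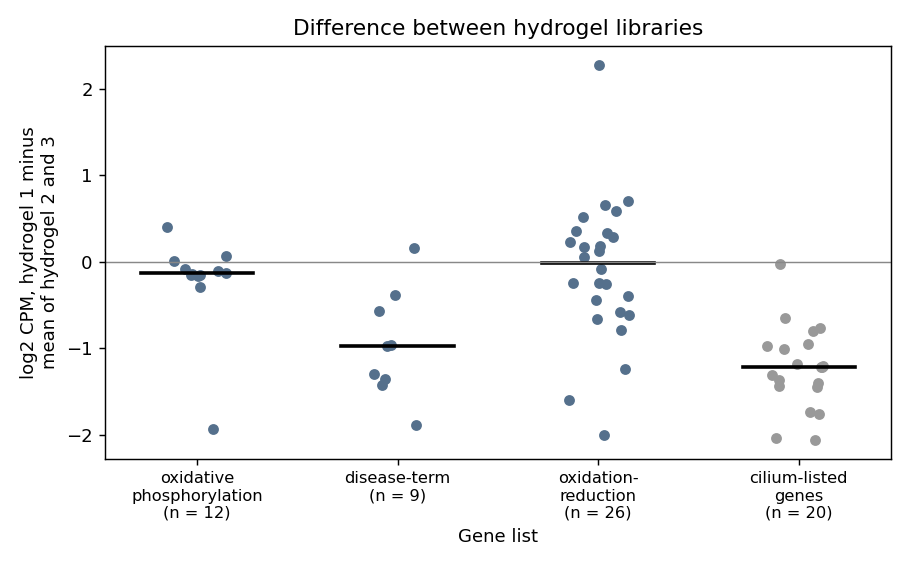
Log2 CPM of hydrogel 1 minus the mean of hydrogel 2 and 3 (y axis) for each gene (points) in the 3 member lists and in the cilium-listed genes (x axis), with black lines at the medians. The medians are -0.13 for oxidative phosphorylation, -0.98 for disease-term, -0.02 for oxidation-reduction members and -1.22 for cilium-listed genes.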

How the data were processed

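The deposited table holds whole-number read counts per gene for 3 blank and 3 hydrogel libraries. A further table for each sample, 6 in all, repeats that sample's counts. Titles gave each library's group and replicate number. The submitters' processing notes name HISAT2 2.2.1 and featureCounts 2.0.2, beside DESeq2 1.34.0 and the builds GRCh38 and mm10, neither of rabbit. For the rabbit build, annotation and strand setting, a value is not given in the sources used here. Reads may be shared between overlapping genes or near-identical copies.

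Members came from the gene lists in enrichment tables that the authors deposited, whose adjusted p-values are quoted as the authors'. A deposited comparison table with log2 fold changes by the authors was used to count the members it lists. Of 67 sheets per workbook, 64 were not used, nor were 489 numeric columns per workbook that match no sample here. Values from human tissue were left out. The members and lists were chosen with earlier results of these data known.

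Counts were fitted with edgeR 4.0.16 in R 4.3.3 (quasi-likelihood, filterByExpr by group, TMM scaling), with Benjamini-Hochberg adjustment over 13598 genes and a threshold of 0.05. The common biological coefficient of variation was 58.5%. Standard errors are approximate, since they derive from each gene's fold change and F statistic. A prior count of 2 entered log2 CPM, and geometric means had a pseudocount of 0.1. Alternatives used DESeq2 1.42.0, limma 3.58.1, other scalings and filters, a replicate block and the omission of each library in turn. Figures used matplotlib 3.10.9.

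With no symbols, the rule for named genes gave 2 identifiers, those with the highest mean CPM. The pathway gene lists and cell type markers could not be used.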

Additional observations from a re-analysis of the deposited data

How the results depend on the processing

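Over all genes tested, 865 changed (6.36%; edgeR quasi-likelihood test, adjusted p under 0.05), 610 higher and 255 lower. All 120 medians of the lists under the alternatives stayed above 0, an outcome that choosing members higher in hydrogel favours. Of these medians, 118 moved by less than the spread between libraries. They cover all members, the lists and the source terms, which overlap. The oxidative phosphorylation members enter both as a list and as a source term. Other scalings, filters and limma-voom left between 28 and 32 members called, beside 609 to 911 of 12992 to 16378 genes in either direction. The choice of members on these libraries favours such counts, which are no support for the differences. DESeq2 called 47 members and 2104 genes, 1281 higher and 823 lower. Its count of members was all but set beforehand by that choice, which used the authors' own DESeq2 comparison. Without 1 library, between 0 and 23 members were called, of between 7 and 741 genes, with between 5 and 603 higher and between 2 and 246 lower. The median log2 fold change of the disease-term members was 4.56 and ran from 4.38 to 6.13 without 1 library. Without the 10 genes with the most reads, which include 2 members, the remaining members held 0.936% of the remaining counts in blank and 3.25% in hydrogel. These values cover fewer members and a smaller total than the 1.54% and 5.06% of all 47 members.

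The labels do not say that a replicate number pairs samples. The deviations of same-numbered libraries from their group means had correlations of -0.20, 0.01 and -0.10. With a replicate block, 1 member and 15 genes were called, 10 higher and 5 lower, and the disease-term median was 5.86. The cause of these changes was not tested. Depth limits the rarest members, which had 6 or 7 reads over the blank libraries.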
